A study of Drosophila melanogaster with 8 samples.

Results

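The heads of 2 laboratory strains of Drosophila melanogaster that served as controls in a microRNA study were compared with each other, w1118 against a strain that carries the tim-gal4 driver. RNA was read on Affymetrix Drosophila Genome 2.0 arrays at 2 times of day, and 7678 of the 18769 probe sets that are not array controls entered the comparison, because their log2 value was 4 or more on 2 or more of the 4 control arrays. A probe set is a group of short probes that reports 1 transcript as 1 log2 intensity. The remaining 11091 probe sets did not pass that filter and were not tested. Of those that did, 219 passed through the w1118 arrays alone and 157 through the arrays of the other strain alone; such probe sets had to differ, and 331 of them were called in the test described below.

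The study holds 8 arrays, 1 for each of 4 strains at ZT4 and at ZT16, that is 4 h and 16 h after the light came on, in a cycle of 12 h light and 12 h darkness kept for 3 days. The w1118 flies are labelled only by that genotype, a mutation of the eye colour gene white, and they are the control of a knockout labelled w1118 ; mir959-962-KO. The second control is labelled yw ; tim-gal4/CyO, and it is the control of a strain labelled yw ; tim-gal4, UAS-mir-cluster/CyO, called overexpression here. Adult flies were frozen on dry ice and the heads then removed; their age, their sex and how many were pooled are not given in the sources used here. The 2 control strains therefore differ in yellow, in the gal4 transgene driven by the promoter of the clock gene timeless, in the CyO balancer of chromosome 2, over which the driver is kept heterozygous, and in every other sequence that separates the stocks. These differences cannot be told apart. With 1 array for each strain and time, p-values measure only the spread between these single collections.

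Laboratory strains of the fly descend from few founders and have been kept apart for many generations, so they carry different alleles and transposon insertions. Genes of detoxification, immunity and the cuticle are known to vary among strains. In the head, the adult cuticle, the compound eye with its screening pigments, the brain with its glia, the fat body around the brain and small muscles all add to the RNA.

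The labelled tissue was checked against marker genes. Of 17 neuronal markers 15 or 16 reached log2 4 on each control array, as did 12 of 13 glial and 21 of 22 phototransduction markers. No eggshell or ovary gene (20) reached 4 on any array. On the w1118 arrays and the ZT4 array of the tim-gal4 control, 2 of 39 gut, 0 of 31 testis and 1 of 23 accessory gland genes did so. On the ZT16 array of the tim-gal4 control 16, 19 and 22 did, and the summed linear signal of the gut list was 9930 there, against 1317 to 2463 on the other 3 control arrays. The testis sum was 4037 against 163 to 167, and the accessory gland sum was 26585 against 9236 to 11080. The knockout ZT16 array carried the same markers. Since a probe set had to be seen on 2 control arrays, only 12 of those tested were at least 2-fold higher on both of these arrays than on each of the other 6. The ZT4 pair is given first throughout.

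The 2 strains differed in a large share of head transcripts. At ZT4, 421 probe sets (5.48% of those tested) were at least 2-fold higher in w1118 and 442 (5.76%) at least 2-fold lower. Of these 863, 188 differed at least 4-fold and 21 at least 16-fold. In the ZT16 pair 1115 probe sets differed at least 2-fold. The same probe sets often did so at both times: 312 (4.06%) were at least 2-fold higher in w1118 in both pairs and 274 (3.57%) at least 2-fold lower. With the brightest probe set standing for each of 6338 genes, 399 genes were at least 2-fold apart the same way at both times. In opposite directions, 12 probe sets differed at least 2-fold at both times.

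All values below that carry a standard error (SE) or a p are from limma fitted to the 8 arrays, with strain and time of collection as terms and 3 residual degrees of freedom. The difference is w1118 minus the tim-gal4 control on the log2 scale, averaged over ZT4 and ZT16, with an error taken from how far the change between the times varies among strains. A probe set is called when its adjusted p, by Benjamini-Hochberg over the 7678, is under 0.05. By this rule 3171 probe sets (41.3%) were called, 2102 (27.4%) higher and 1069 (13.9%) lower in w1118. The differences of called probe sets had a median size of 0.71, and 841 of the 3171 were at least 2-fold. A model that takes strain-specific time changes as its error favours differences that are alike at both times, so that agreement is not separate evidence. An unadjusted p under 0.05 was reached by 3844. Without the ZT16 arrays of the knockout and the tim-gal4 control 2104 were called, 1176 higher and 928 lower.

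The balance of higher over lower calls depends on the scaling of the arrays. Over all tested probe sets the median difference was 0.055 at ZT4, 0.23 at ZT16 and 0.15 in the fit, all above 0. When each array was centred on its own median, 3172 were called and the share of calls that were higher in w1118 went from 66.3% to 48.5%; after quantile normalization it was 60.6%. Directions of gene groups are therefore to be read against the 6338 genes tested, whose median was 0.071 at ZT4 and 0.16 in the fit and of which 28.1% were called higher and 12.2% lower.

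**Figure D1:**
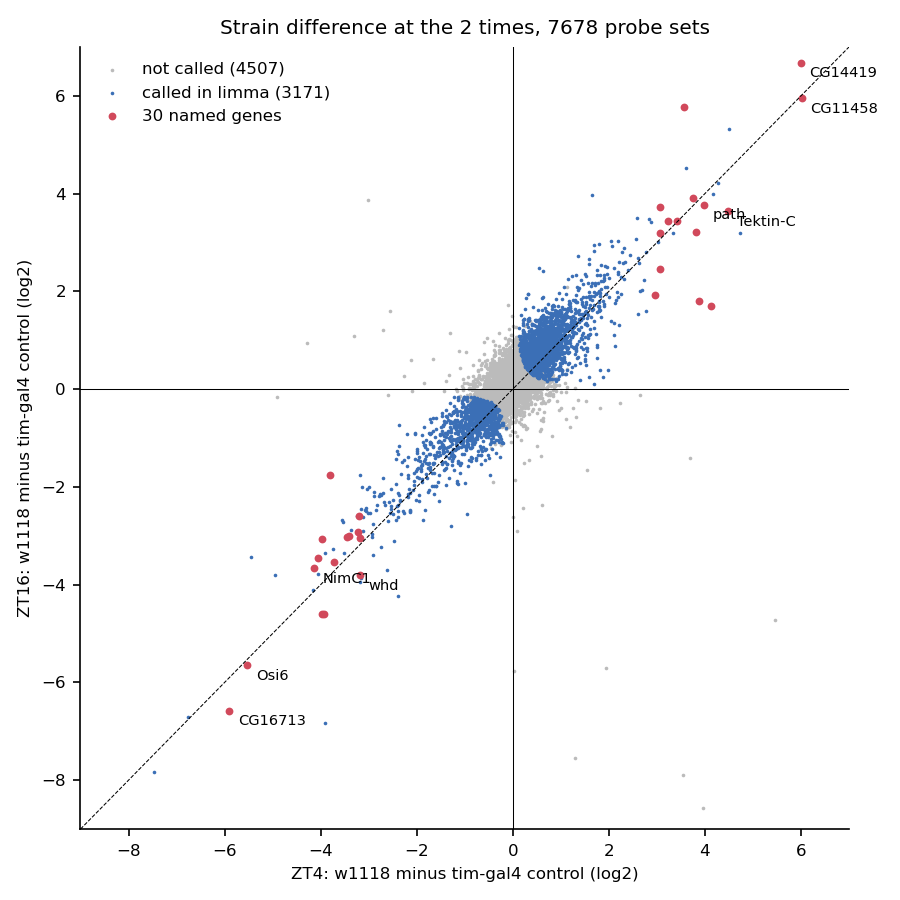
Difference between w1118 and the tim-gal4 control on the log2 scale at ZT4 (horizontal) and at ZT16 (vertical) for the 7678 probe sets tested. Blue points are the 3171 called by limma, grey points the other probe sets, red points the 30 named genes with the largest ZT4 differences, and the dashed line marks equal differences at both times. Most points with a large ZT4 difference lie near the dashed line, and 12 probe sets are at least 2-fold apart in opposite directions.

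Markers of the genotypes were read first. For yellow (y), which acts in black cuticle pigmentation, w1118 read 4.20 at ZT4 and 2.58 at ZT16, and the tim-gal4 control read 2.34 at both times. Only 1 of these 4 values is above 4, so y was not tested. The lowest value on every array was 2.32, and values close to it are not quantitative. In purple (pr), an enzyme gene of red eye pigment synthesis whose mutant allele many CyO chromosomes carry, w1118 read 8.88 and 8.81 and the tim-gal4 control 7.08 and 7.11, with no overlap (difference 1.75, SE 0.15, adjusted p = 0.000106 in limma). In the overexpression strain, which carries CyO too, pr read 8.02 and 8.31. The level of cinnabar (cn) was 2.32 on all 4 control arrays. Duox, the gene mutated in Curly wings, stayed under 4 on all 4, and dumpy (dpy) differed by 0.47 (SE 0.23, adjusted p = 0.134 in limma).

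For timeless (tim), whose promoter drives gal4, 2 probe sets gave different readings. The brighter one rose from 6.0 at ZT4 to 11.17 at ZT16 in w1118 and from 7.66 to 10.55 in the tim-gal4 control, and it was not called (difference -0.52, SE 0.48, adjusted p = 0.409 in limma). The dimmer one read 2.36 and 3.83 in w1118 and 4.75 and 8.06 in the tim-gal4 control. It passed the filter through the tim-gal4 control alone, so it had to differ and is given as a description. In limma it was called lower in w1118 (difference -3.31, SE 0.62, adjusted p = 0.00416). It also separated the knockout, at 2.33 and 3.22, from overexpression, at 4.64 and 8.49. Whether that probe set reads transgene RNA was not tested.

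The 30 genes with the largest called ZT4 differences, 15 in each direction, came from many functions. They were picked for their size, so that their differences and p-values are descriptions. CG11458 was highest in w1118 by this measure, at 10.16 and 9.87 against 4.14 and 3.92. CG14419 read 8.95 and 9.61 against 2.95 and 2.93. CG11458 was measured above 3.9 on all 4 arrays and differed 65.0-fold at ZT4. In the tim-gal4 control CG14419 lay close to background, so the size of its difference is not quantitative. It passed the filter through w1118 alone and had to differ.

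Tektin-C, which encodes a filament protein of cilia and sperm tails, was seen in w1118 at 6.89 and 6.58 and lay at 2.40 and 2.95 in the tim-gal4 control (a difference of 4.06 with SE 0.22, adjusted p = 1.24e-05 in limma). The amino acid transporter gene path (pathetic) read 9.80 and 10.17 in w1118 against 5.81 and 6.40. KaiR1D, a kainate-type glutamate receptor gene of nerve terminals, read 6.13 and 6.04 in w1118 against 2.71 and 2.59. In each of these genes the lower w1118 array stood well above the higher tim-gal4 array, and the genes were chosen for large differences. Tektin-C and KaiR1D passed the filter through w1118 alone, so they had to differ. The differences were 3.88 (SE 0.17) for path and 3.43 (SE 0.15) for KaiR1D, with adjusted p-values of 4.77e-06 and 5.02e-06 in limma. The other genes on the higher side were CG7214, CG4000, CG13026, lncRNA:CR32553, CG3348, Cpr49Ag, Cpr62Bb, CG7203, CG3588 and Cpr100A, with ZT4 differences down to 2.97.

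On the lower side CG16713 stood first. Its level was 2.99 and 2.67 in w1118 and 8.89 and 9.24 in the tim-gal4 control (a difference of -6.24 with SE 0.21, adjusted p = 2.66e-06 in limma). Osi6, a member of the Osiris family of insect membrane proteins, lay at 2.33 and 2.34 in w1118 and at 7.85 and 7.99 in the tim-gal4 control. Both genes were at or near the lowest value in w1118, so the sizes of their differences are not quantitative. They passed the filter through the tim-gal4 control alone and had to differ.

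NimC1, a phagocytosis receptor of hemocytes, read 3.01 and 3.10 in w1118 against 7.14 and 6.76 in the tim-gal4 control (a difference of -3.89 with SE 0.15, adjusted p = 3.02e-06 in limma). tutl (turtle), an immunoglobulin-family surface protein of neurons, read 2.57 and 2.95 against 6.54 and 6.01. Arc1, a Gag-like gene of synapses whose protein forms capsids, was bright in both strains, at 7.66 and 8.66 against 11.46 and 10.41. A second Arc1 probe set read 4.71 and 5.12 against 10.15 and 8.55, in the same direction. For whd (withered), the carnitine palmitoyltransferase that brings fatty acids into mitochondria, the levels were 6.66 and 6.60 against 9.84 and 10.40 (difference -3.49, SE 0.17, adjusted p = 7.44e-06 in limma). The zinc transporter gene Zip102B read 3.72 and 3.70 against 7.14 and 6.71. In none of these genes, chosen for large differences, did the 2 strains overlap. NimC1, tutl and Zip102B passed the filter through the tim-gal4 control alone, so they had to differ. The rest were CG40470, Cyp12d1-d, CG9377, CG4962, CG7900, CG12947, PPO1 and Cyp6d2.

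A transcript was taken as present in 1 strain when it reached log2 6 on both of its arrays and stayed under 3 on both arrays of the other strain. By that rule 4 probe sets were present only in w1118, namely CG14419, Tektin-C, KaiR1D and 1 with no symbol, and 6 only in the tim-gal4 control. The 6 were CG16713, Osi6, tutl, Cyp12d1-d, tobi and 1 with no symbol. tobi is an alpha-glucosidase gene under the control of insulin and glucagon-like hormones. It read 2.65 and 2.44 in w1118 and 6.57 and 9.26 in the tim-gal4 control. In the knockout, which is w1118 by label, it read 6.73 and 9.87. In overexpression, which carries tim-gal4 by label, it read 2.82 and 2.65, so tobi did not follow the background labels. It is 1 of the 12 probe sets highest on the 2 arrays with body markers. Probe sets match the array's reference sequence, and whether a strain's own sequence matches each probe was not tested. Of 32 genes with a 2-fold difference at both times and more than 1 tested probe set, the other probe sets pointed the same way at both times in 14 and were also 2-fold in 9.

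**Figure D2:**
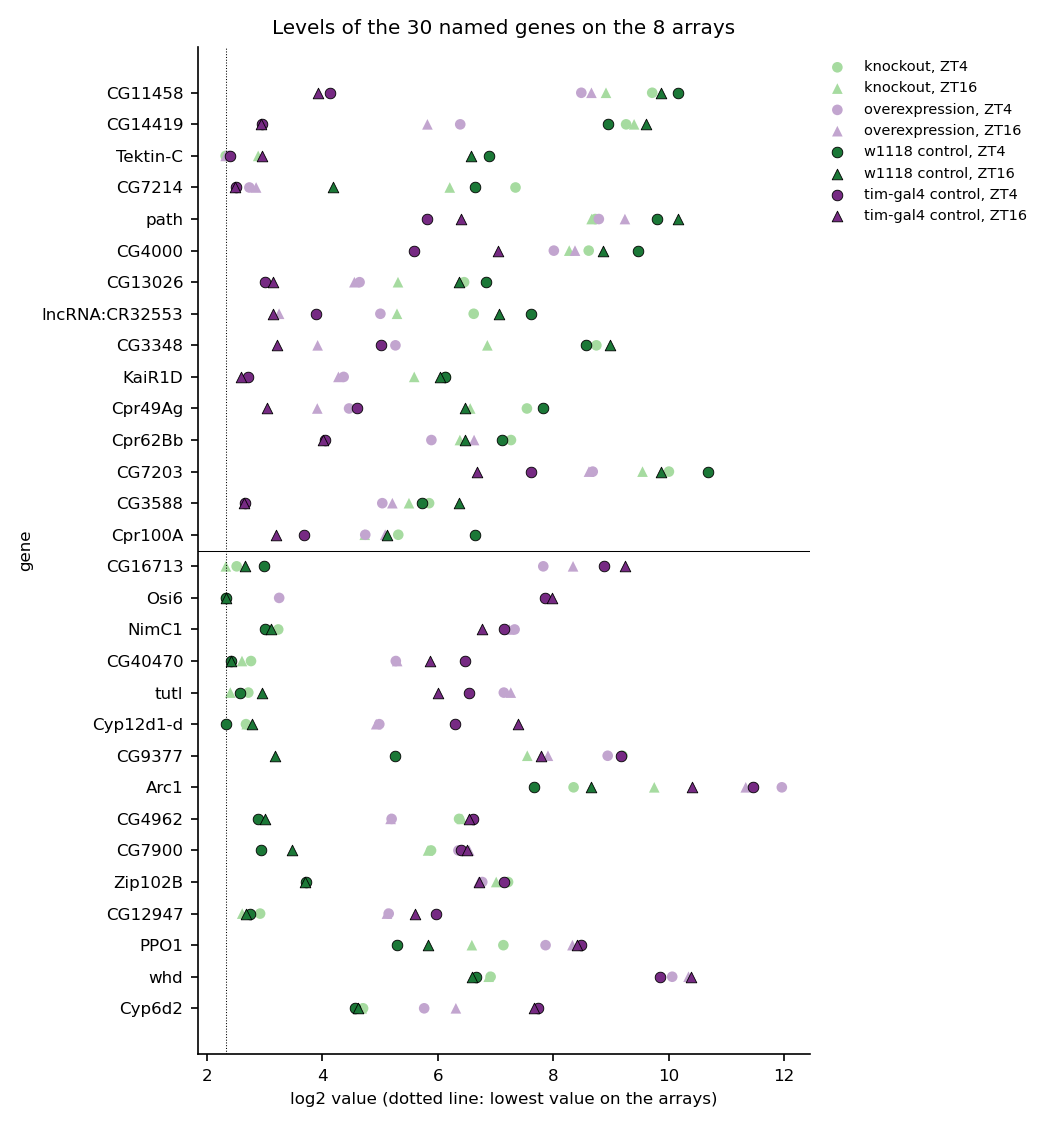
Log2 value (horizontal) on each of the 8 arrays for the 30 named genes (vertical), the 15 higher in w1118 above the line and the 15 lower below it. Dark green marks w1118, dark purple the tim-gal4 control, light green the knockout and light purple overexpression, with circles for ZT4 and triangles for ZT16; the dotted line is the lowest value on the arrays, 2.32. The dark green and dark purple points do not overlap in any of the 30 genes, which were chosen for large differences.

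The other 2 strains, whose arrays did not choose these probe sets, carry the same 2 background labels. Of the 421 probe sets at least 2-fold higher in w1118 at ZT4, 191 (45.4%) were also at least 2-fold higher in the knockout than in overexpression at ZT4, against 6.49% of all probe sets tested. Of the 442 lower, 247 (55.9%) were at least 2-fold lower in the knockout, against 7.58% of all. The sign was shared by 377 (89.5%) of the former and 368 (83.3%) of the latter, where 50.6% and 49.3% of all probe sets had that sign. At least 2-fold the other way were 5 and 21. The knockout and overexpression strains also differ from each other by the microRNA cluster itself, which these values include.

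**Figure D3:**
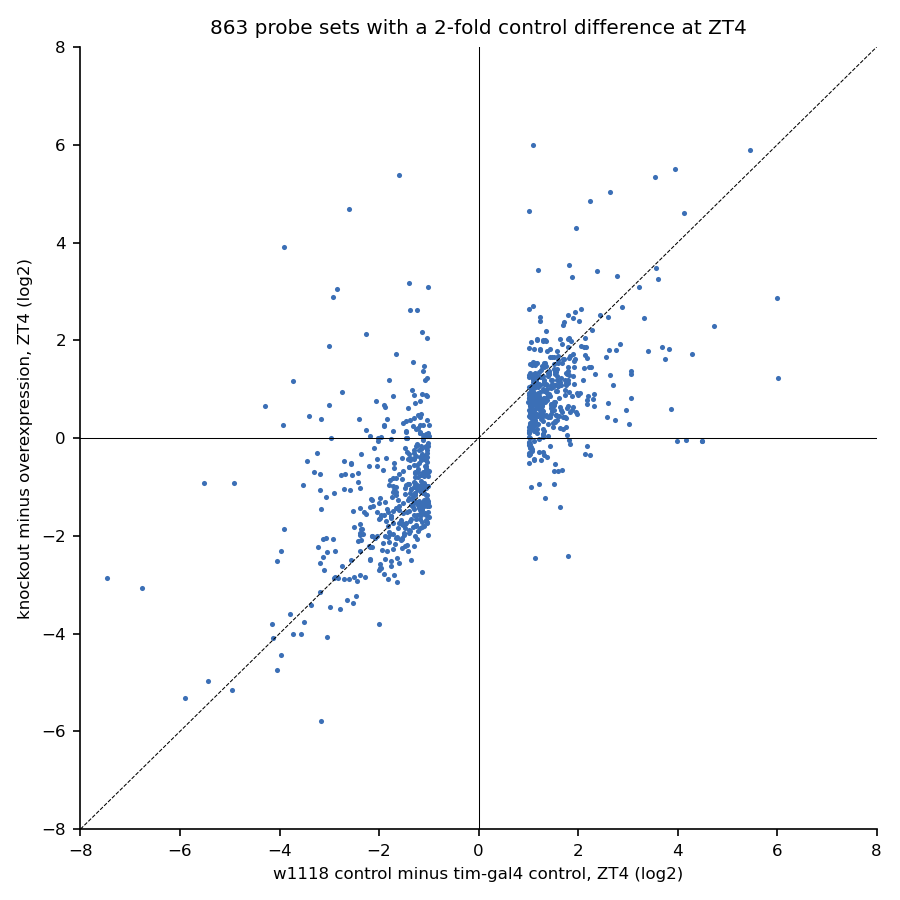
ZT4 difference between the knockout and overexpression (vertical) against the ZT4 difference between w1118 and the tim-gal4 control (horizontal), both on the log2 scale, for the 863 probe sets with a control difference of at least 2-fold. No array is used on both axes, and the dashed line marks equality. Of the points on the right 377 of 421 lie above 0, and of those on the left 368 of 442 lie below 0.

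Each of the 586 probe sets with a 2-fold difference at both times was sorted by which control the knockout and overexpression ZT4 levels were nearer to. In 412 (70.3%) the knockout lay nearer w1118 and overexpression nearer the tim-gal4 control, which is the split the background labels give. In 106 (18.1%) both lay nearer w1118, so that the tim-gal4 control stood apart from the other 3 strains. In 49 (8.36%) both lay nearer the tim-gal4 control, and in 19 (3.24%) the arrangement was crossed. Among the 30 named genes 16 were split by background, 8 had the tim-gal4 control apart and 6 had w1118 apart. NimC1, for example, read 3.23 in the knockout and 7.33 in overexpression at ZT4, near its respective control. path read 8.73 and 8.79, nearer w1118 than the tim-gal4 control in both. Osi6 read 2.33 and 3.25, so that the tim-gal4 control alone had a level above background. Tektin-C read 2.32 and 2.38, so that w1118 alone did, and Zip102B read 7.22 and 6.77, near the tim-gal4 control in both.

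Cuticle protein genes encode the chitin-binding structural proteins of the exoskeleton, and most of those called were higher in w1118. Of 106 on the array 17 passed the filter. Of these, 10 (58.8%, beside 28.1% of all genes) were called higher, 1 lower and 6 were not called. At both times 8 were at least 2-fold higher. The filter was passed through the w1118 arrays alone by 5 of the 17, which had to differ, and Cpr100A, Cpr60D, Cpr62Bc and Cpr97Eb among them are 4 of the 10 called higher. Cpr76Bc passed through the tim-gal4 control alone and was not called. The median ZT4 difference of the 17 was 0.91, and their fitted median was 1.06. Cpr49Ag read 7.82 and 6.48 in w1118 against 4.60 and 3.04 in the tim-gal4 control (a difference of 3.33 with SE 0.22, adjusted p = 2.94e-05 in limma). Cpr62Bb read 7.12 and 6.47 against 4.05 and 4.01, and Cpr100A 6.65 and 5.12 against 3.69 and 3.20. Cpr49Ae was 3.48-fold higher at both times, at 8.69 and 8.46 against 6.89 and 6.67. The strains did not overlap in any of these 4 genes. After median centring the counts were again 10 and 1, and without the 2 arrays with body markers they were 10 and 0. In the other strains the median of the 17 genes, relative to w1118 at ZT4, was 0.019 and -0.78 in the knockout and -1.23 and -0.87 in overexpression at ZT4 and ZT16.

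Most of the called pigment genes were higher in w1118 as well, as were called genes at large (1779 higher and 774 lower). Of 17 eye pigment genes tested, 8 (47.1%, beside 28.1% of all genes) were called higher, 1 lower and 8 not called. Their median was 0.32 at ZT4 and 0.39 in the fit. The 4 at least 2-fold higher at both times were se, pr, g and Pu. Of these se (sepia), pr and Pu (Punch, GTP cyclohydrolase) encode enzymes of the pteridine pathway that makes the red drosopterins, and g (garnet) encodes a subunit of the AP-3 complex, which delivers cargo to pigment granules. For se the levels were 8.99 and 9.46 in w1118 against 6.81 and 7.05 in the tim-gal4 control (a difference of 2.29 with SE 0.14, adjusted p = 1.86e-05 in limma). Pu read 10.41 and 10.59 against 9.27 and 8.96. g read 7.82 and 7.97 against 6.53 and 6.32. At ZT4 the enzyme genes se and pr were nearer w1118 than the tim-gal4 control in the knockout and overexpression alike. For pr in overexpression the margin was small, at 8.02 against 8.88 in w1118 and 7.08 in the tim-gal4 control. g and Pu followed the background labels. Both controls carry a mutation of white by their labels, and white itself was not analysed here.

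Of 13 genes of cuticle pigment and dopamine, 7 (53.8%, beside 28.1% of all genes) were called higher, 2 (15.4%, beside 12.2%) lower and 4 not called. Tyrosine hydroxylase (ple), the first enzyme of dopamine synthesis, read 4.60 and 4.62 in w1118 against 2.85 and 3.04. It passed the filter through w1118 alone, so it had to differ and is given as a description. Ddc, dopa decarboxylase, read 8.89 and 8.61 against 8.08 and 7.87. Ebony (e), which joins beta-alanine to dopamine, read 8.05 and 7.62 against 7.16 and 6.51. The 2 lower were relatives of yellow, yellow-f2 (-0.52, adjusted p = 0.0110 in limma) and yellow-d, at 6.65 and 7.28 against 7.69 and 8.18 (difference -0.97, SE 0.12, adjusted p = 0.000672 in limma). Eye and cuticle pigment calls after median centring were 7 higher and 3 lower, and 5 higher and 2 lower.

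Detoxification enzymes differed in both directions, with a different balance in each family. Cytochrome P450 enzymes oxidize hormones, plant toxins and insecticides. Of 50 P450 genes tested, 17 (34%, beside 12.2% of all genes) were called lower in w1118, 8 (16%, beside 28.1%) higher and 25 not called. The 11 (22%) that were at least 2-fold apart the same way at both times were lower in w1118, beside 160 of all 6338 genes. Cyp4g1 was 2-fold higher at ZT4 and lower at ZT16. Cyp12d1-d and Cyp6a14 passed the filter through the tim-gal4 control alone and are among the 17. The median of the 50 was -0.096 at ZT4 and -0.090 in the fit.

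Cyp12d1-d, a mitochondrial P450 gene, lay at 2.33 and 2.79 in w1118 and read 6.29 and 7.39 in the tim-gal4 control (a difference of -4.29 with SE 0.26). It has a near-identical copy, Cyp12d1-p, and a probe set cannot be taken to separate them. Cyp6d2 read 4.56 and 4.62 against 7.74 and 7.67, and Cyp6a23 read 4.97 and 4.31 against 7.41 and 6.98. Cyp4e3 read 5.31 and 5.56 against 7.47 and 7.59. In each of these the tim-gal4 control was higher by at least 2 log2 units at both times. Of the 25 called P450 genes 8 were split by background and 10 had the tim-gal4 control apart. In 5 w1118 stood apart, and 2 were crossed. Without the 2 arrays with body markers 4 of the 50 were called higher and 16 lower, and after median centring 6 and 20.

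Glutathione transferases attach glutathione to electrophilic compounds. Of 26 tested 9 (34.6%) were called higher in w1118, beside 28.1% of all genes, 2 were called lower and 15 not called, with a fitted median of 0.34. GstE6 read 9.19 and 8.57 in w1118 against 6.46 and 6.32 in the tim-gal4 control (a difference of 2.49 with SE 0.16, adjusted p = 2.25e-05 in limma). GstE7 read 6.76 and 5.72 against 4.16 and 4.17, GstE1 9.92 and 8.68 against 8.22 and 7.42, and GstE3 8.47 and 7.78 against 7.06 and 6.91. These 4 belong to the epsilon class, whose genes lie in a cluster, and their sequences are related. GstE6 and GstE7 were near w1118 in the knockout and overexpression alike, at 9.27 and 8.89 and at 7.55 and 6.82 at ZT4. With median centring the family had 6 higher and 5 lower calls, and with quantile normalization 7 and 3.

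Of 13 UDP-glycosyltransferases, which conjugate sugars to small molecules, 2 (15.4%, beside 28.1% of all genes) were called higher and 2 (15.4%, beside 12.2%) lower. Ugt36E1 stood out at 7.18 and 6.88 against 5.89 and 5.05 (difference 1.56, SE 0.17, adjusted p = 0.000285 in limma), and the others that were called, Ugt36D1, Ugt36A1 and Ugt35A1, were less than 2-fold apart. Among 11 metal genes, 1 was called higher (ZnT77C, 0.90) and 2 (18.2%, beside 12.2% of all genes) lower, which were Zip102B and the metallothionein gene MtnA (-0.50). ZnT77C and Zip102B each passed the filter through 1 strain alone. Of 11 heat shock genes only Hsc70-4 was called, lower by -0.57 in w1118.

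Of lipid genes more were called lower than higher in w1118. Of 28 tested 13 (46.4%) were called lower, beside 12.2% of all genes, 2 higher and 13 not called, and the median was -0.31 at ZT4 and -0.32 in the fit. Besides whd, the largest differences were in bgm (bubblegum), a very-long-chain acyl-CoA synthetase, at 7.97 and 7.28 in w1118 against 9.69 and 8.61. Lsd-2, a perilipin of lipid droplets, read 9.16 and 9.40 against 10.41 and 10.74 (difference -1.30, SE 0.13, adjusted p = 0.000225 in limma). The triglyceride lipase gene bmm (brummer) read 7.32 and 7.84 against 8.37 and 8.74. In all 4 the tim-gal4 control was the higher strain at both times, although bmm works in fat release and Lsd-2 in fat storage. Without the 2 arrays with body markers the counts were 8 lower and 2 higher, and after median centring 17 and 0.

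Of 24 carbohydrate genes 7 (29.2%, beside 12.2% of all genes) were called lower, 3 (12.5%, beside 28.1%) higher and 14 not called. Their median was -0.10 at ZT4. The 7 include tobi, which passed the filter through the tim-gal4 control alone. Pepck1, the phosphoenolpyruvate carboxykinase of gluconeogenesis, read 10.49 and 10.50 in w1118 against 12.76 and 13.03 in the tim-gal4 control (a difference of -2.40 with SE 0.18, adjusted p = 4.82e-05 in limma). The maltase gene Mal-B2 read 8.63 and 8.75 against 10.17 and 11.04, and the hexokinase gene Hex-C 8.83 and 8.48 against 9.59 and 9.88. Pepck1 was crossed in the other strains, at 12.48 in the knockout and 10.34 in overexpression at ZT4, and so was tobi. Of the 10 called carbohydrate genes 3 were crossed and 1 was split by background. In 4 the tim-gal4 control stood apart and in 2 w1118 did. The 3 higher calls were between 0.36 and 0.42, and none of them was called after median centring, which gave 9 lower. Without the 2 arrays with body markers 4 carbohydrate genes were called lower.

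**Figure D4:**
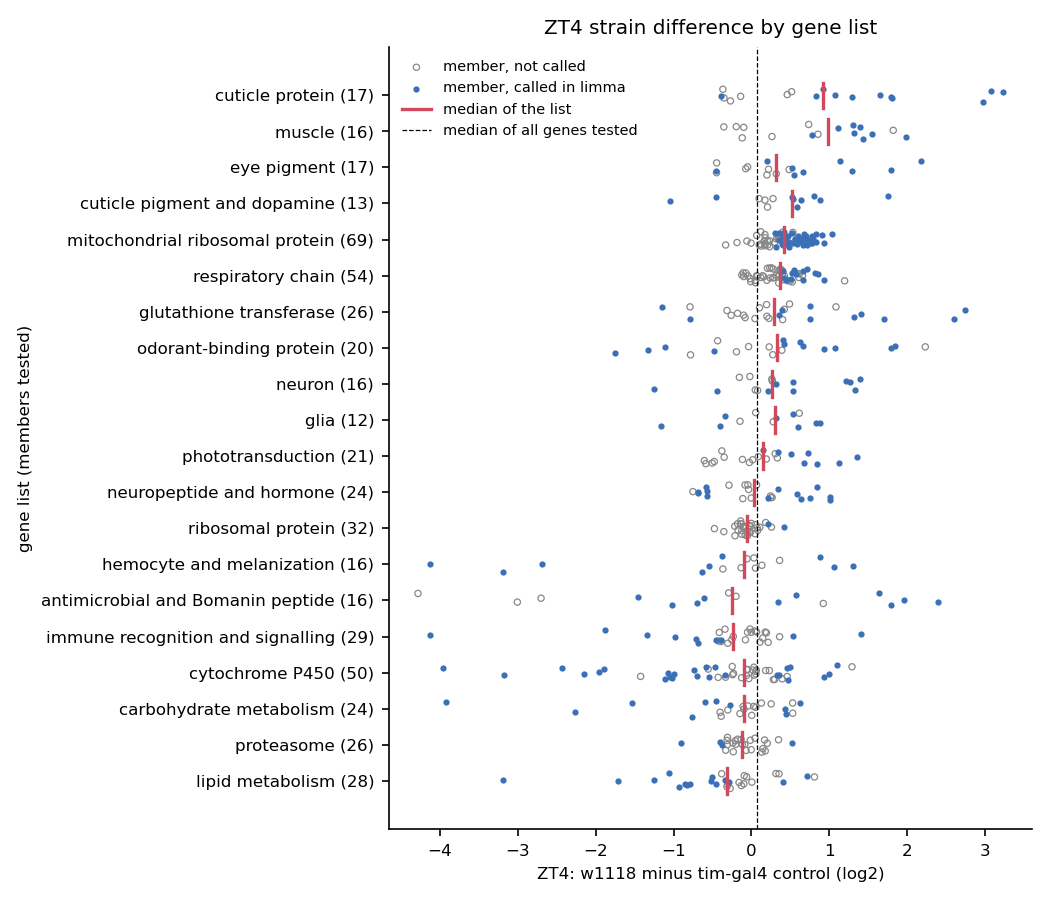
ZT4 difference on the log2 scale (horizontal) for the tested members of 20 of the 34 gene lists (vertical, members tested in parentheses). Filled points are members called by limma, open points members not called, red bars the list median and the dashed line the median of all genes tested, 0.071. Cuticle protein, muscle and mitochondrial ribosomal protein genes lie mostly to the right of the dashed line and lipid metabolism genes mostly to its left.

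Antimicrobial and Bomanin peptides are secreted, and the fat body makes them on infection. Of 16 such genes tested 6 (37.5%, beside 28.1% of all genes) were called higher, 4 (25%, beside 12.2%) lower and 6 not called. Their median was -0.25 at ZT4 and 0.33 in the fit, and at ZT4 4 were at least 2-fold higher and 5 at least 2-fold lower. The 4 called lower, BomT2, BomBc3, BomS6 and Listericin, had differences of -0.51 to -1.10. Without the 2 arrays with body markers the counts were 6 higher and 5 lower with a median of -0.18, and after median centring 5 and 5. BomS4 read 11.40 and 11.68 in w1118 against 9.01 and 9.24 in the tim-gal4 control (a difference of 2.42 with SE 0.18, adjusted p = 4.58e-05 in limma). BomT3 read 10.75 and 11.18 against 8.79 and 8.82. The drosomycin-like genes Drsl4, at 11.19 and 11.40 against 9.41 and 9.78, and Drsl5, at 11.92 and 12.02 against 10.28 and 10.55, were higher too. Both Bom genes followed the background labels, while Drsl4 and Drsl5 were crossed, at 7.98 and 9.85 in the knockout and 10.38 and 11.27 in overexpression at ZT4. The inducible peptide genes DptB and Mtk changed direction between the 2 times and were not called.

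Of 29 genes of immune recognition and signalling, 8 (27.6%, beside 12.2% of all genes) were called lower, 2 (6.90%, beside 28.1%) higher and 19 not called. Their median was -0.23 at ZT4, and 14 were called lower after median centring. NimC1 and PGRP-SC2 passed the filter through the tim-gal4 control alone and Pvf1 through w1118 alone, so these 3 called genes had to differ. PGRP-SC2, a peptidoglycan amidase of the gut, read 2.74 and 2.89 in w1118 against 4.61 and 5.57, and 2.70 and 5.03 in the knockout, so that the higher reading of both these strains was on the ZT16 array with body markers. PGRP-SB1 read 8.77 and 9.54 against 10.11 and 10.05. The growth factor gene Pvf1, a ligand of the PDGF/VEGF-type receptor, was called higher, at 5.20 and 4.96 against 3.80 and 3.53.

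Hemocyte and melanization genes included NimC1 and both measured prophenoloxidase genes, which were lower in w1118. Of 16, 6 (37.5%, beside 12.2% of all genes) were called lower, 3 (18.8%, beside 28.1%) higher and 7 not called. The prophenoloxidases PPO1 and PPO2 of crystal cells, which start melanin formation in wounds, read 5.29 and 5.83, and 6.56 and 6.77, in w1118. In the tim-gal4 control they read 8.48 and 8.42, and 9.25 and 9.07. The differences were -2.89 (SE 0.25) and -2.49 (SE 0.16), with adjusted p-values of 0.000100 and 2.33e-05 in limma. In the knockout PPO1 read 7.14 at ZT4 and 6.59 at ZT16, and PPO2 8.03 and 7.72, between the 2 controls. These levels were nearer the tim-gal4 control at ZT4 and nearer w1118 at ZT16. The collagen IV gene Col4a1, which hemocytes and fat body express, went the other way, at 8.51 and 8.45 against 7.20 and 7.30. In whole heads fewer cells of a type and less RNA per cell cannot be told apart. The counts were 3 higher and 4 lower without the 2 arrays with body markers.

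Neuronal and photoreceptor genes that were called were mostly higher in w1118, as were called genes at large (1779 higher and 774 lower). Of 16 neuronal genes 8 (50%, beside 28.1% of all genes) were called higher, 2 (12.5%, beside 12.2%) lower and 6 not called. Their fitted median was 0.32. ChAT, the acetylcholine-synthesizing enzyme, read 8.66 and 8.67 in w1118 against 7.34 and 6.88 (difference 1.56, SE 0.15, adjusted p = 0.000170 in limma). Rdl, a GABA receptor subunit, read 8.84 and 8.51 against 7.57 and 7.33. The neuronal synaptobrevin gene nSyb went the other way, at 7.75 and 7.83 against 9.0 and 8.30 (difference -0.86, SE 0.18, adjusted p = 0.00735 in limma). For the active zone gene brp (bruchpilot) the 2 probe sets disagreed. The brighter read 5.58 and 4.78 against 4.19 and 3.24 (difference 1.46, SE 0.29, adjusted p = 0.00565 in limma), and the dimmer 3.86 and 3.87 against 5.09 and 4.35 (difference -0.85, SE 0.20, adjusted p = 0.0118). In 9 of the 10 called neuronal genes the knockout and overexpression followed the background labels. This share varied among lists. It was 8 of 12 called odorant-binding protein genes, 9 of 15 lipid genes and 8 of 25 P450 genes. It was 3 of 10 antimicrobial and Bomanin, 2 of 9 hemocyte and melanization and 1 of 10 carbohydrate genes. The higher calls numbered 4 without the 2 arrays with body markers and 6 after median centring.

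Of 21 phototransduction genes 8 (38.1%, beside 28.1% of all genes) were called higher, 0 lower by limma (0 at an unadjusted p under 0.05) and 13 not called. The median was 0.15 at ZT4, 0.50 at ZT16 and 0.37 in the fit. On the 2 arrays with body markers the summed linear signal of the list was lowest, at 47137 (tim-gal4 control ZT16) and 45806 (knockout ZT16). The other arrays had 55875 to 64779. What body tissue changes in the ZT16 values of this list was not tested. rdgA, the diacylglycerol kinase of the photoreceptor, read 8.38 and 8.78 in w1118 against 7.02 and 6.76 (difference 1.69, SE 0.17, adjusted p = 0.000250 in limma), and its other 2 tested probe sets had differences of 0.57 and 2.08. The opsin gene Rh7 read 7.05 and 6.75 against 5.92 and 5.15. inaE, a diacylglycerol lipase, and eys, a matrix protein that separates the light-sensing rhabdomeres, were called higher by 1.05 (SE 0.14) and 1.23 (SE 0.23). A second inaE probe set was higher by 0.26 at ZT4 and 0.51 (SE 0.19) in the fit and was not called. Without the 2 arrays with body markers 5 were called higher and 1 lower.

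Glial genes were mixed, with 5 of 12 (41.7%, beside 28.1% of all genes) called higher, 3 (25%, beside 12.2%) lower and 4 not called. Glutamine synthetase 2 (Gs2) read 12.40 and 12.42 against 11.57 and 11.66, and the sodium pump subunit gene nrv2 was higher by 0.54 (SE 0.15, adjusted p = 0.0205 in limma). CG3168 was lower, at 7.70 and 7.94 against 8.86 and 9.87 (difference -1.55, SE 0.21, adjusted p = 0.000928 in limma).

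Muscle genes differed most in the ZT4 pair. Of 16 tested 8 (50%, beside 28.1% of all genes) were called higher in w1118, 0 lower by limma (3 at an unadjusted p under 0.05) and 8 not called. At ZT4 8 were at least 2-fold higher, with a median of 0.98, while at ZT16 the median was 0.20 and only 2 were 2-fold in both pairs. Mlc2, the myosin regulatory light chain, read 9.22 at ZT4 and 8.72 at ZT16 in w1118 against 7.23 and 8.33 in the tim-gal4 control. Tropomyosin 2 (Tm2) read 8.65 and 8.27 against 7.26 and 8.08, and up (upheld), a troponin T, 7.40 and 7.42 against 5.86 and 6.11. Paramyosin (Prm) was called higher by 1.23 (SE 0.18, adjusted p = 0.00129 in limma), but a second probe set was higher by 0.77 at ZT4 and lower at ZT16 and was not called. The ZT16 array of the tim-gal4 control is the one with gut, testis and accessory gland markers, and its summed linear signal over the 20 muscle genes was 9281, against 6079 at ZT4. In w1118 the sums were 10620 and 9389. What body tissue adds to the ZT16 muscle values was not tested. Without the 2 arrays with body markers 11 of the 16 were called higher and 0 lower, and with median centring 4 and 2.

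Mitochondrial ribosomal protein genes were higher in w1118 by a small amount. They encode the ribosome that translates the proteins of the mitochondrial genome. All 69 on the array passed the filter. Of them 42 (60.9%, beside 28.1% of all genes) were called higher, 0 lower by limma (1 at an unadjusted p under 0.05) and 27 not called. At ZT4 65 of 69 had a positive difference, beside 3614 of all 6338 genes. The median was 0.42 at ZT4 and 0.45 in the fit, against 0.16 for all genes. The called differences lay between 0.36 and 1.07, and only mRpL36 was at least 2-fold in both pairs, at 6.47 and 6.50 in w1118 against 5.44 and 5.39. mRpL51 read 6.52 and 6.71 against 5.62 and 5.50 (difference 1.06, SE 0.13, adjusted p = 0.000689 in limma). mRpL18 and mRpL55 were higher by 0.80 (SE 0.14) and 0.92 (SE 0.12).

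In 37 of these 42 genes the tim-gal4 control stood apart from the other 3 strains. Relative to w1118 at ZT4, the median of the 69 genes was -0.42 and -0.50 in the tim-gal4 control, -0.086 and -0.15 in the knockout and 0.14 and 0.20 in overexpression. Overexpression shares the background label of the tim-gal4 control and was on the opposite side of w1118. The counts were 31 higher and 1 lower after median centring, and 25 and 0 without the 2 arrays with body markers.

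Respiratory chain genes, encoded in the nucleus, had 13 of 54 called higher, 0 lower by limma (0 at an unadjusted p under 0.05) and 41 not called. The share called higher, 24.1%, is below the 28.1% of all genes. The tim-gal4 control stood apart in 11 of the 13. ATPsynCF6, a subunit of ATP synthase, read 11.51 and 11.40 in w1118 against 10.58 and 10.76, and cype, a cytochrome c oxidase subunit, 11.33 and 11.21 against 10.51 and 10.84. ND-MNLL and ND-ACP of complex I were higher by 0.61 (SE 0.13) and 0.73 (SE 0.13), and the other 2 probe sets of ND-ACP were higher as well. After median centring 5 were called higher and 1 lower. Cytoplasmic ribosomal protein genes were close to equal, with 2 of 32 called, RpL7-like (0.50) and RpL24-like (0.40), and a median of 0.039. Of 26 proteasome genes 1 was called higher (Prosalpha6, 0.40) and 3 (11.5%, beside 12.2% of all genes) lower. Of these 3 Rpn1 was the largest (-0.96, SE 0.12), with Rpt2 at -0.49 and Prosbeta6 at -0.52. After median centring 11 proteasome genes were called lower and 0 higher.

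**Figure D5:**
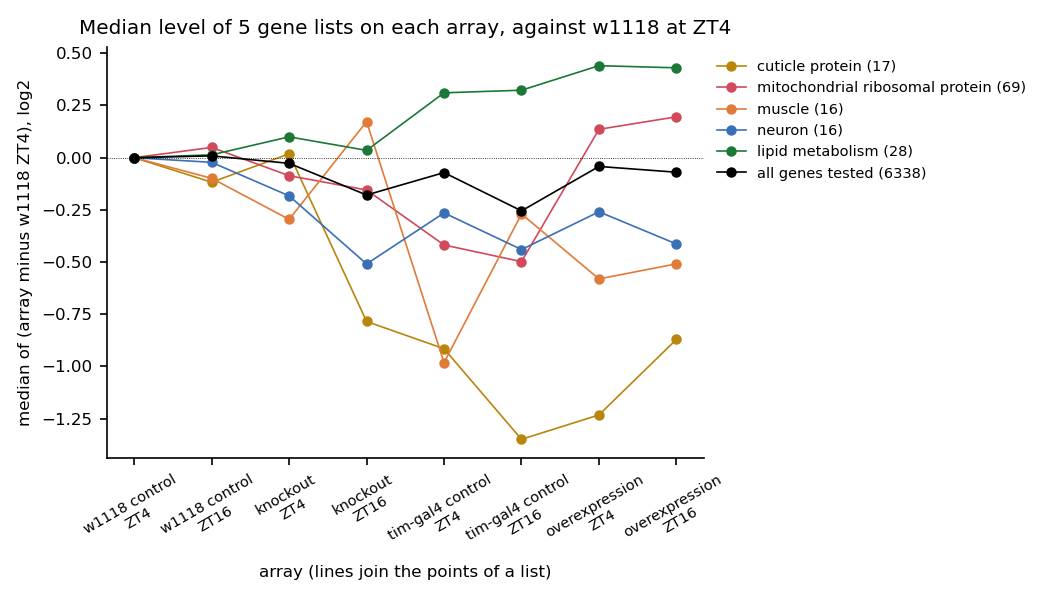
Median over the tested members of 5 gene lists of the log2 difference between each array and the w1118 ZT4 array (vertical), for the 8 arrays (horizontal). Black is the median of all 6338 genes, lines only join the points of a list, and the number of genes is in parentheses. Mitochondrial ribosomal protein genes lie at -0.42 and -0.50 in the tim-gal4 control and above 0 in overexpression, cuticle protein genes lie at -0.87 or lower on all arrays of the 2 strains with tim-gal4, and lipid genes lie at 0.31 or higher there.

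Secreted signals and clock outputs differed in some members. Of 24 neuropeptide and hormone genes 8 (33.3%, beside 28.1% of all genes) were called higher and 5 (20.8%, beside 12.2%) lower in w1118. Only 1 of them was 2-fold at both times. That gene was Pdf, the neuropeptide of the clock neurons, at 7.24 and 7.40 in w1118 against 6.23 and 5.84 in the tim-gal4 control (a difference of 1.28 with SE 0.15, adjusted p = 0.000531 in limma). In overexpression, which has the same driver, Pdf read 4.26 at both times, and in the knockout 6.91 and 6.79. Ilp5, an insulin-like peptide of the brain, read 7.49 and 6.96 against 6.48 and 6.35. Nplp3 was higher by 0.74 (SE 0.14) and Proc (proctolin) by 0.52 (SE 0.17). After median centring the counts were 6 and 7.

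Of 13 genes of the core clock list 3 (23.1%, beside 28.1% of all genes) were called higher, 2 lower and 8 not called. Pdf, counted among the neuropeptides above, is also in this list and is 1 of the 3 higher. Cycle (cyc) was higher by 0.66 (SE 0.15, adjusted p = 0.00852 in limma) and Fbxl4 by 1.07 (SE 0.22), while the blue-light receptor gene cry read 7.40 and 4.84 in w1118 against 7.86 and 5.66 (difference -0.64, SE 0.16, adjusted p = 0.0154 in limma). Where the daily change itself differed among strains, the model gives a large error. Of the juvenile hormone genes 3 of 5 (60%, beside 40.3% of all genes) were called, with differences of 0.48 for Jhbp7, 0.45 for Jhbp1 and -0.36 for Kr-h1. With limma on the 4 control arrays alone 0 of the 5 were called (2 at an unadjusted p under 0.05), without the 2 arrays with body markers 0 (0 at an unadjusted p under 0.05), and after median centring 0 were called higher and 3 lower.

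Odorant-binding proteins, which carry odorants and other small molecules in the fluid around sensory neurons, differed in both directions. Of 20 tested 8 (40%, beside 28.1% of all genes) were called higher, 4 (20%, beside 12.2%) lower and 8 not called. Obp69a, 1 of the 8 called higher, passed the filter through w1118 alone. Obp99b, which is also expressed in fat body, read 11.74 and 12.54 in w1118 against 9.90 and 10.00 (difference 2.19, SE 0.29, adjusted p = 0.000870 in limma), and Obp56h 8.58 and 8.32 against 6.79 and 6.54. Obp56a was lower, at 4.05 and 5.20 against 5.80 and 7.26, as was Obp8a, at 4.44 and 3.97 against 5.76 and 4.97. None of 166 chemoreceptor genes reached the filter, so the receptors themselves were not detectable here.

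Yolk protein genes, which female fat body expresses, read almost the same in both strains: Yp1 read 14.89 and 14.84 in w1118 against 14.89 and 14.86. These values are close to the top of the array's range. fit (female-specific independent of transformer) was the only called one of 6 female and male markers, at 12.73 and 13.04 against 11.30 and 11.76 (difference 1.35, SE 0.14, adjusted p = 0.000258 in limma). The storage protein gene Lsp2 read 10.36 and 11.33 against 9.72 and 9.45, and 5.83 and 6.85 in overexpression. In the gut list only 2 of 39 genes passed the filter, of which the lysosomal mannosidase gene LManII was called lower (-1.28, SE 0.12, adjusted p = 0.000151 in limma). In the accessory gland list EbpIII alone passed, with a difference of 0.11 that was not called. TotC, the only Turandot stress peptide gene tested, differed by -0.095 at ZT4 and 1.71 at ZT16 and was not called.

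Genes that differed lay on all chromosome arms. Of 6324 genes placed on an arm, 398 (6.29%) were at least 2-fold apart the same way at both times. The share was 7.97% of 1041 genes on the X, 5.68% of 1145 on 2L, 6.09% of 1314 on 2R, 6.25% of 1216 on 3L and 5.47% of 1553 on 3R. The arms of chromosome 2, where CyO lies over the driver in 1 strain, were close to those of chromosome 3. On the small chromosome 4, 9 of 55 genes (16.4%) were 2-fold, 1 higher and 8 lower in w1118, among them Zip102B. On the X 60 of the 83 were higher in w1118, beside 239 of the 398 on all arms.

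Differing genes were also read in their order along the arms. The next measured gene along the arm was also 2-fold for 35 of the 398 (8.79%, against 6.29% of all genes), and it pointed the same way in 24. No run of 3 or more neighbours was 2-fold at both times, which says little about blocks when 6.29% of genes are 2-fold. Among genes called at any size, 123 runs of at least 3 neighbours held 422 of the 6324 genes. The longest 2, with 6 genes each, were both on the X and higher in w1118. They reached from CG42246 to CHES-1-like, with differences of 0.50 to 2.14, and from CG13404 to sbm, with 0.50 to 1.82. Of all 6324 genes 1774 were called higher, and of the 1041 on the X 346 were. Whether the runs exceed what such shares give was not tested. Probe sets without a symbol were 2-fold at both times in 11.1% of 705, against 7.19% of 6777 with 1 symbol.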

How the data were processed

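RNA from fly heads was measured on 8 arrays, 1 for each strain and time. The values are log2 intensities as deposited, and GCRMA is named in the submitters' processing notes; its version and settings are not given in the sources used here. Of 18952 probe sets 183 array controls were left out, and 7678 of the rest were tested. Of these 6777 carried 1 gene symbol in the platform annotation, 196 several and 705 none; the brightest probe set stood for each of 6338 genes. A RefSeq table (Release 6) gave chromosome arm and gene order. Single arrays give no error of their own, so limma 3.58.1 in R 4.3.3 was fitted to all 8 arrays with strain and time (two-sided moderated test, Benjamini-Hochberg over all tested), after a check on simulated data. Tables were made in Python 3.11.15 (pandas 2.3.3, numpy 2.4.6) and figures in matplotlib 3.10.9. With so few arrays the precision is low.

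The comparison and the 34 gene lists were chosen with earlier results of these data known. Named are the genotype markers, the 15 largest ZT4 differences each way among called genes with 1 symbol and the same sign at both times, leaving out the 12 probe sets high on both arrays with body markers, up to 4 called members of each list (2 where none was called), and, of runs of at least 3 called neighbours, the ends of the 2 longest only. Other genes named were chosen after their values were seen. Scaling, filters, model terms, moderation and left-out arrays were varied.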

Additional observations from a re-analysis of the deposited data

Results flagged for a closer look

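For 3 genes of the lists the strain difference at ZT4 and at ZT16 was at least 2-fold in opposite directions, and the difference between the times was not tested. The antimicrobial peptide gene DptB was lower in w1118 at ZT4 (-3.01) and higher at ZT16 (3.87); the levels were 5.65 and 8.01 in w1118 and 8.65 and 4.14 in the tim-gal4 control. Mtk, a second antimicrobial peptide gene, differed by -2.70 at ZT4 and 1.21 at ZT16, with levels of 8.57 and 9.93 against 11.27 and 8.72. Of the 2 controls, only the tim-gal4 control was lower at ZT16 than at ZT4 in these genes. The cytochrome P450 gene Cyp4g1 differed by 1.29 at ZT4 and -7.55 at ZT16, and it is among the 12 tested probe sets highest on the 2 arrays with body markers, at 12.92 on the tim-gal4 control ZT16 array against 4.16 to 5.45 on the other 3 control arrays.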

How the results depend on the processing

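The 3171 probe sets called in limma became 2104 without the 2 arrays with body markers, 1100 with no filter on low values and 2108 where log2 6 was required on 2 arrays. Leaving out each array in turn gave 1796 to 2946, and the 2 arrays that moved the count by over 1.5 times were w1118 ZT16 (1796 without it) and tim-gal4 control ZT16 (1888). The other 9 alternatives gave 2290 (no time term) to 3323 (trended and robust moderation), with 2375 from the 4 control arrays alone. The 586 probe sets 2-fold at both times became 364 at log2 6 and 357 where all 4 control arrays had to reach log2 4, and the 863 at ZT4 became 529 at log2 6. Scaling, dropping the filter, leaving out body probe sets or keeping 1 probe set per gene left both counts within 1.5 times. Of 115 called probe sets of named genes, 81 were called under every alternative other than no filter, as were 28 of the 30 largest (not Arc1 and CG7214); with no filter too, 24 of the 30 were. None of the 115 changed direction under any of these. Of named genes not called, TotC went from 0.81 to -0.45 without the 2 arrays with body markers and -0.60 without tim-gal4 control ZT16, tim from -0.52 to 0.11 and 0.36 without w1118 ZT4 and tim-gal4 control ZT4, and EbpIII from 0.11 to -0.053 with median centring. Counts of calls in lists under other scalings or arrays were chosen after seeing the data. Arrays are matched across strains by collection time, which is a term of the model; beyond that no paired analysis was possible because each condition has 1 array. Values near 2.32 are at background, and differences against them are not quantitative.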
